A study of Mus musculus with 8 samples.

Results

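Histone mRNAs of 2 classes were followed in layer IV of the mouse visual cortex: the replication-dependent histone genes, whose symbols begin with Hist, and the variant histone genes of the H1f, H2af and H3f3 families. Members were chosen by symbol, leaving out symbols marked as pseudogenes. For each gene the transcript most counted over the 6 libraries was used, and genes with a total of 30 counts or more were kept. Of the 34980 genes in the files, 81 symbols matched and 40 were members, of which 30 were replication-dependent and 10 variant. The other 41 stayed below the minimum, and 13 of these had 0 counts. The member closest above it was Hist1h3d with 33 counts, and the gene closest below it was Hist1h2bk with 23.

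RNA came from B6D2 mice in 3 groups of 2 libraries each: wild type (Otx2 +/+) at postnatal day 100 (P100), Otx2 heterozygotes at P30, and wild type at P30. The heterozygous genotype is written Otx2 +/- in the labels of the samples and Otx2 +/GFP in the description of the series. Otx2 encodes a homeodomain transcription factor, and the study asked how it bears on plasticity of the visual cortex. Layer IV was dissected by hand, tissue of 4 mice was pooled per condition, and total RNA was extracted. The tissue holds all cell types of the layer, and fewer cells of a type cannot be told apart from less RNA per cell.

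Histones H2A, H2B, H3 and H4 form the nucleosome core around which DNA is wound, and linker histone H1 binds where the DNA enters and leaves it. Replication-dependent histone genes lie in clusters, mostly lack introns and are transcribed mainly in S phase. Their mRNAs normally end just after a conserved stem-loop, which is bound by the stem-loop binding protein, in place of a poly(A) tail. Some of these genes also give longer, polyadenylated transcripts in cells that have stopped dividing. Most variant histones are made throughout the cell cycle from polyadenylated mRNAs, and in long-lived neurons they also supply new histone.

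Totals over the most counted transcript of each gene were 13733970 and 11168076 counts in the wild-type P100 libraries. They were 14842212 and 15308781 in the heterozygous P30 libraries, and 11016841 and 14870365 in the wild-type P30 libraries. Within each group the 2 libraries lay further apart than counting noise would put them, and their chi-square per degree of freedom was 4.17 to 5.40. Nothing in the labels ties duplicates to different pools of mice, so each p-value reflects only the spread between these libraries, which may be technical. Otx2 had 0 counts in 5 of the 6 libraries, so it gives no check of the genotype labels. Heterozygous replicate 2 held 73 counts of Otx2 and 8966 of Ttr, a choroid plexus transcript that had at most 1 count in any other library. Xist had 785 and 924 CPM in the heterozygous libraries, against 0.264 to 0.639 CPM in the wild-type libraries. The Y-linked Ddx3y had 2.48 and 1.04 CPM in the heterozygous libraries, against 146 to 156 CPM in the wild-type ones. The genotype comparison therefore also sets libraries with a female expression pattern against libraries with a male one, and these cannot be told apart. Levels are given as CPM, the count of a transcript relative to a TMM-scaled total of its library. That total takes in only the most counted transcript of each gene that passed a filter on low counts.

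The conserved 3′ stem-loop was searched in the annotated sequence of each member's transcript, as the pattern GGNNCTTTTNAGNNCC on the sense strand. It was found in 19 of the 30 replication-dependent members and in 1 variant, H2afx. The following stretches are shown because they mark where the processed mRNA normally ends. The 16 bases in capitals are the stem-loop match, with 5 bases on either side, all from sense-strand transcript sequence (GENCODE M21, GRCm38).
Hist1h4d: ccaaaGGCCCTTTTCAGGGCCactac
Hist3h2a: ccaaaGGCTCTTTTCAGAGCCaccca
Hist1h1c: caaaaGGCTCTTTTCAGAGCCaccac
Hist1h4f: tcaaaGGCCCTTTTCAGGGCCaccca
Hist2h4: ctaacGGCCCTTTTTAGGGCCaacca
Hist1h2bb: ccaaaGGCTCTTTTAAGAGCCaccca
Hist1h4b: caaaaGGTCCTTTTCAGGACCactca
H2afx: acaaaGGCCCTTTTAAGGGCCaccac
The capitals of Hist3h2a and Hist1h1c are the same, and this form was found in 9 members of the H1, H2A, H2B and H3 families. The form shared by Hist1h4d and Hist1h4f was found in 4 members, all of them H4 genes. The single form with GGT and ACC at the foot of the stem was that of Hist1h4b.

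The transcripts differed in how far they ran past the stem-loop. Only 6 replication-dependent transcripts ended within 100 bases of it, at 11 to 57 bases, and Hist1h4f was one of them with 33 bases. The other 13 ran on for 155 to 4884 bases, with 770 in Hist1h4d and 1643 in Hist3h2a. Annotated transcripts of this second kind carried 65.7% and 67.2% of the replication-dependent counts in the wild-type P100 libraries, 66.5% and 69.5% in the heterozygous libraries, and 70.6% and 71.7% in the wild-type P30 libraries. The counts do not show where in a transcript reads lay, so these shares are of genes with a long annotated form and not of long molecules. In 11 replication-dependent members the annotated transcript held no match.

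**Figure D1:**
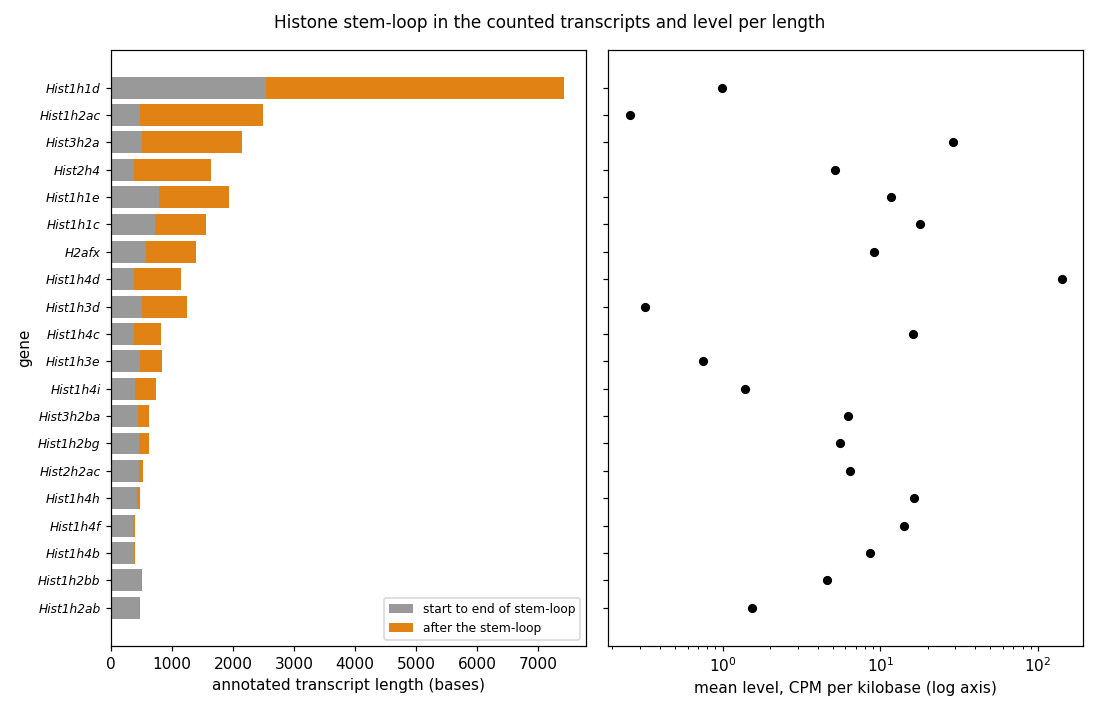
Length of each annotated transcript that holds the stem-loop (left), split into bases up to the end of the stem-loop and bases after it. The mean level over the 6 libraries in CPM per kb is on the right (log axis), with 1 point per member. Hist1h4d, with 770 bases past the stem-loop, has a level far above the others, and the 6 transcripts that end within 100 bases lie between 1.54 and 16.4 CPM per kb.

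A reading of single members is limited by their likeness to each other. In 24 of the 30 replication-dependent members, at least 10% of the 50-base stretches of the transcript also occurred in transcripts of other genes (median 31.0%). The same held for 4 of the 9 variants whose counted transcript was annotated (median 9.66%). Hist1h1a, Hist1h1b and Hist2h2be shared no such stretch with another gene. The sources used here give neither the read length nor the treatment of reads with several matches. Nor do they say whether strand was used in counting, so reads of an antisense partner may be included in a gene's count.

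The transcript counted as Hist2h2bb needs a particular limit, because it has the lowest adjusted p of the tested members in both comparisons. The files pair transcript ENSMUST00000051089 with gene ENSMUSG00000050936 and the symbol Hist2h2bb. GENCODE M21 assigns it to a long intergenic noncoding RNA gene, Gm42743, on chromosome 3 from 96269721 to 96279001 on the plus strand (GRCm38). It has a first exon of 257 bases and a second of 1254 bases, from 96277748 to 96279001, that lies apart from the histone coding gene. The protein-coding Hist2h2bb transcript of M21 lies at 96269752 to 96270132 on the same chromosome and was not analysed here. Only 15.0% of the counted bases overlap it, and 17.0% lie antisense to Gm20628. The counts of Hist2h2bb are thus those assigned to a spliced transcript annotated from the histone gene onwards. Where in it the reads lay, and how many came from the histone gene or an antisense partner, was not tested. Its part in histone H2B supply was not tested either.

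Levels per kilobase of annotated transcript, averaged over the 6 libraries, put 1 core histone gene far above the rest. Hist1h4d, an H4 gene, had 142 CPM per kb. It was followed by Hist2h2bb at 50.3 CPM per kb, by H2afy at 29.6 CPM per kb and by Hist3h2a at 28.8 CPM per kb. H2afy encodes macroH2A1, an H2A variant with a large additional domain, and Hist3h2a is an H2A gene outside the main cluster. H3f3b, which encodes the replacement histone H3.3, had 22.4 CPM per kb. Hist1h1c, a linker histone gene, had 17.9 CPM per kb, close to the H4 genes Hist1h4h at 16.4 CPM per kb and Hist1h4c at 16.3 CPM per kb. Replication-dependent H3 genes were low: Hist1h3e had 0.754 CPM per kb and Hist1h3d 0.322 CPM per kb. They are the 2 members among 11 replication-dependent H3 symbols. Each level is that of the most counted transcript alone. Counts were given for 8 transcripts of H2afy, 7 each of H3f3a and H2afz and 4 of H3f3b. For Hist1h4d, Hist2h2bb and Hist3h2a they were given for 1 each. Levels of these variants thus leave out their other transcripts, which limits the ranking.

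**Figure D2:**
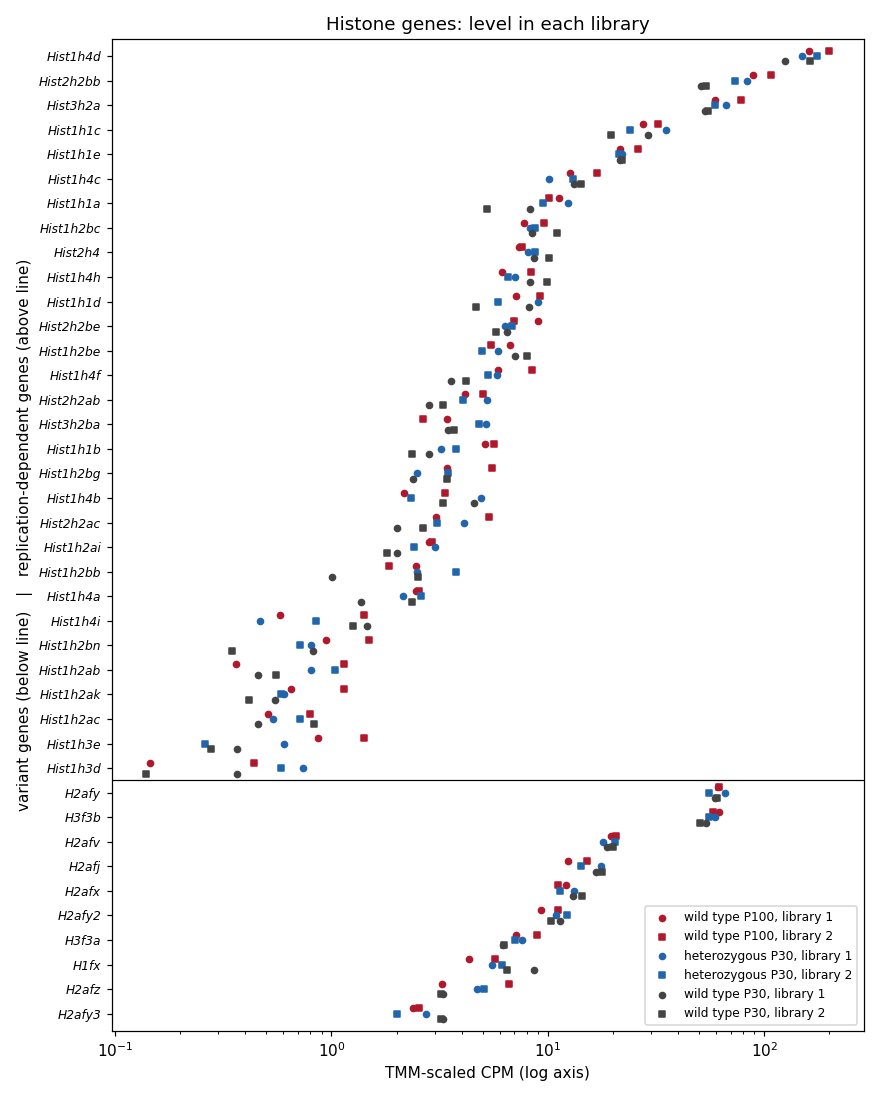
Level of each of the 40 members in each library in TMM-scaled CPM (log axis), with replication-dependent genes above the dividing line and variants below it. Within each gene the wild-type P100, heterozygous P30 and wild-type P30 libraries are drawn from top to bottom, and Hist1h4d, with 125 to 199.7 CPM, leads in every library.

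At P100, 3 of the 28 replication-dependent members that passed the filter on low counts were higher in wild-type libraries than at P30, none was lower, and none of the 10 variants was called. The 3 were Hist2h2bb, the linker histone gene Hist1h1b and the H4 gene Hist1h4f. A gene was called where the adjusted p of edgeR's quasi-likelihood test was under 0.05. Of all 15841 genes tested, 7.54% were called, 3.0% as higher and 4.54% as lower, against 10.7% of the replication-dependent members as higher. At an unadjusted p under 0.05 there were 9 of the 28 replication-dependent members and 3 of the 10 variants, where 22.7% of all genes tested had such a p. Hist1h2ak and Hist1h3d, both replication-dependent, did not pass the filter.

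Hist2h2bb had 88.6 and 107 CPM in the wild-type P100 libraries and 50.8 and 53.8 CPM in the wild-type P30 libraries. Both P100 libraries lay well above both P30 libraries. Mean levels were 98.0 ± 13.3 CPM at P100 and 52.3 ± 2.15 CPM at P30 (SD, n = 2 each), 1.87-fold higher at P100. The log2 difference was 0.90 with an SE of 0.10 (edgeR adjusted p = 2.04e-04). The authors' deposited table gives this transcript a log2 fold change of 0.91 with an adjusted p of 4.15e-04.

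Hist1h1b lies on chromosome 13 from 21779883 to 21780625 on the minus strand (GRCm38) and is annotated as a single exon of 743 bases. It had 5.14 and 5.63 CPM in the wild-type P100 libraries, against 2.83 and 2.36 CPM in the wild-type P30 libraries. Both P100 values were above both P30 values, at a low level in all 4. The means were 5.39 ± 0.348 CPM at P100 and 2.597 ± 0.330 CPM at P30 (SD, n = 2 each), 2.08-fold higher at P100, with a log2 difference of 1.06 and an SE of 0.24 (edgeR adjusted p = 0.0181). The call did not hold with DESeq2 (adjusted p = 0.0719). It was also lost without wild-type P30 replicate 2 or without either P100 library, at edgeR adjusted p-values of 0.110, 0.0655 and 0.112.

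Hist1h4f lies on chromosome 13 from 23551258 to 23551648 on the minus strand (GRCm38). Its levels were 5.86 and 8.45 CPM in the wild-type P100 libraries and 3.56 and 4.17 CPM in the wild-type P30 libraries. The groups did not overlap, but the P100 libraries stood further apart from each other than the lower one did from P30. The log2 difference was 0.86 with an SE of 0.23 (edgeR adjusted p = 0.0354), a 1.82-fold higher level at P100. The authors' deposited table gives Hist1h4f a log2 fold change of 0.89 with an adjusted p of 0.378. With counts summed over transcripts Hist1h4f was not called (edgeR adjusted p = 0.0786). Of its 50-base stretches, 39.5% also occurred in other genes, mostly other H4 genes. Without P100 replicate 2 the difference was 0.59 on the log2 scale and the call was lost (edgeR adjusted p = 0.267). It was lost as well with DESeq2 (adjusted p = 0.0954), with limma-voom (adjusted p = 0.0527) and without either wild-type P30 library (edgeR adjusted p = 0.145 and 0.0878).

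**Figure D3:**
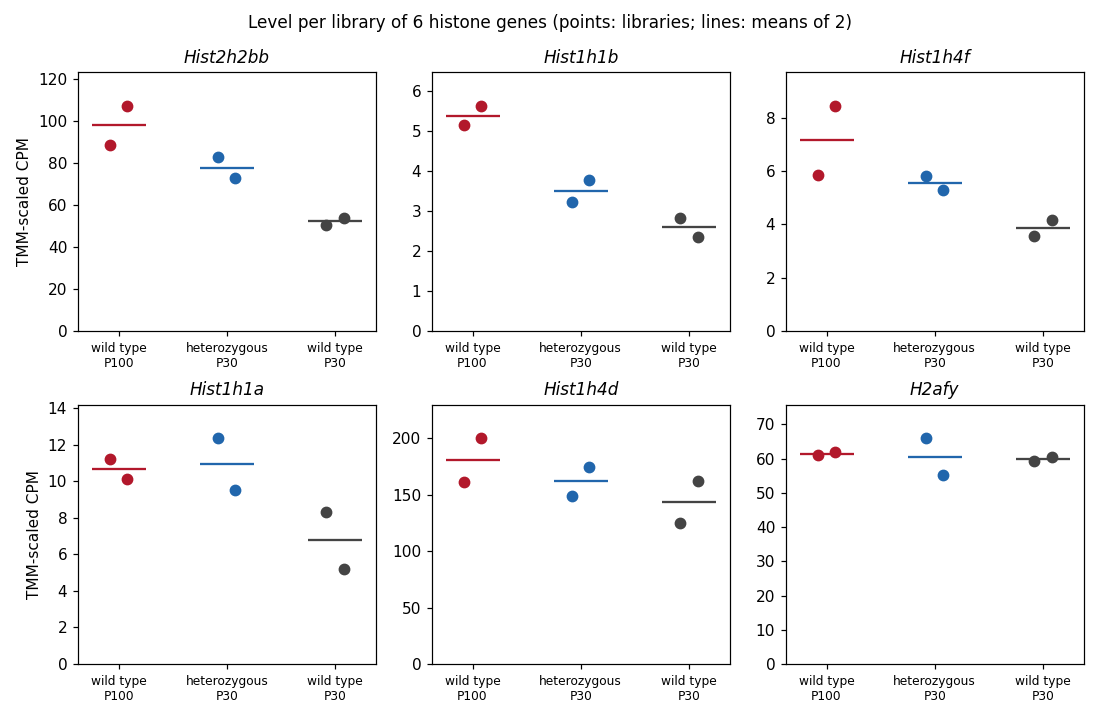
Level per library in TMM-scaled CPM for 6 histone genes, with the groups from left to right wild-type P100, heterozygous P30 and wild-type P30, points for libraries and lines for means of 2. Hist2h2bb, Hist1h1b, Hist1h4f and Hist1h1a show both P100 points above both wild-type P30 points, while the Hist1h4d groups overlap and H2afy lies between 55.3 and 65.9 CPM throughout.

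Among the linker histone genes, all 5 replication-dependent members had a log2 difference above 0 at P100, and Hist1h1b alone was called. Hist1h1a had 11.2 and 10.1 CPM at wild-type P100 and 8.31 and 5.21 CPM at wild-type P30. Its groups did not overlap, with a log2 difference of 0.69 and an SE of 0.21 that missed the threshold (edgeR adjusted p = 0.0684). Hist1h1c, the most abundant linker histone gene, had 27.6 and 32.3 CPM at P100, 35.1 and 24.0 CPM in heterozygotes, and 28.9 and 19.5 CPM at wild-type P30, and all groups overlapped. Hist1h1e had 21.5 and 26.2 CPM at P100, 21.9 and 21.4 CPM in heterozygotes, and 21.6 and 22.1 CPM at wild-type P30, also overlapping, and 25.7% of its bases lie in same-strand exons of Hist1h2be and Gm11398.

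Among the H2A genes, Hist3h2a had 59.1 and 78.2 CPM at wild-type P100, against 53.0 and 55.2 CPM at wild-type P30. Both P100 libraries were higher, by unequal amounts, and the log2 difference of 0.34 (SE 0.12) was not called (edgeR adjusted p = 0.107). Of its bases, 33.0% also lie in same-strand exons of Trim17. Hist2h2ac had 3.04 and 5.37 CPM at P100 against 2.01 and 2.64 CPM at P30, without overlap, and its log2 difference of 0.81 (SE 0.32) was not called either (edgeR adjusted p = 0.144). In heterozygotes it had 4.09 and 3.06 CPM, also above both wild-type P30 values and not called (edgeR adjusted p = 0.359). In all, 5 of the 7 H2A members had both P100 libraries above both P30 libraries, and none had both below. Such separation was common, at 25.5% upwards and 25.7% downwards over all genes tested.

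The H4 genes did not move together. Hist1h4d, with the highest level of all members, had 161 and 199.7 CPM at wild-type P100 and 125 and 162 CPM at wild-type P30, so that the groups just overlapped. Its log2 difference was 0.32 with an SE of 0.12 (edgeR adjusted p = 0.125). Hist1h4c had 12.6 and 16.8 CPM at P100 against 13.2 and 14.2 CPM at P30, with the P30 values inside the P100 range. Of the 8 H4 members, 4 had a log2 difference above 0 and 4 below 0.

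The largest log2 difference at P100 among the tested members was that of Hist1h3e, an H3 gene. It had 0.869 and 1.41 CPM at P100, 0.603 and 0.260 CPM in heterozygotes, and 0.365 and 0.278 CPM at wild-type P30, resting on 49 counts over all 6 libraries. P100 and wild-type P30 did not overlap, heterozygotes overlapped with wild-type P30, and the P100 log2 difference of 1.79 (SE 0.59) was not called (edgeR adjusted p = 0.0835). Hist1h2bn, an H2B gene with 0.941 and 1.496 CPM at P100, 0.804 and 0.716 CPM in heterozygotes, and 0.822 and 0.348 CPM at wild-type P30, had a log2 difference at P100 of 1.09 (SE 0.52, edgeR adjusted p = 0.230). Both are low and share most of their 50-base stretches with other genes, at 73.4% for Hist1h3e and 86.4% for Hist1h2bn.

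Variant histone genes stayed close to their P30 levels or moved either way without being called. H2afy had 61.0 and 61.9 CPM at wild-type P100 and 59.3 and 60.6 CPM at wild-type P30, all within a narrow range, with a log2 difference of 0.03 (SE 0.10). H3f3b had 61.5 and 57.9 CPM at P100 against 54.0 and 50.2 CPM at P30, with both P100 libraries higher. Its log2 difference of 0.20 (SE 0.09) was not called (edgeR adjusted p = 0.213). H3f3a, the other H3.3 gene, had 7.09 and 8.89 CPM at P100 against 6.21 and 6.26 CPM at P30, also without overlap (log2 difference 0.35, SE 0.18).

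The variants of H2A differed in direction. H2afv, one of a pair of H2A.Z genes, had 19.5 and 20.7 CPM at P100 against 18.8 and 20.0 CPM at P30, which overlapped. H2afz, the other, had 3.26 and 6.60 CPM at P100 against 3.29 and 3.20 CPM at P30, so that only 1 P100 library was higher, and 69.6% of its 50-base stretches occurred in other genes. H2afx, whose protein is phosphorylated around DNA breaks, had 12.2 and 11.2 CPM at P100 against 13.1 and 14.4 CPM at P30. Both P100 values were lower, with a log2 difference of -0.24 (SE 0.14, edgeR adjusted p = 0.363).
H2afj, which encodes H2A.J, had 12.4 and 15.1 CPM at P100 against 16.6 and 17.9 CPM at P30. Its P100 values were also both lower (log2 difference -0.34, SE 0.15, edgeR adjusted p = 0.200). H2afy2, the macroH2A2 gene, had 9.26 and 11.1 CPM at P100 against 11.3 and 10.4 CPM at P30, which overlapped. The linker variant H1fx had 4.34 and 5.72 CPM at P100 against 8.67 and 6.47 CPM at P30, with both P100 libraries lower (log2 difference -0.59, SE 0.22, edgeR adjusted p = 0.122). H2afy3 had 2.39 and 2.55 CPM at P100 against 3.29 and 3.20 CPM at P30 (log2 difference -0.39, SE 0.28).

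**Figure D4:**
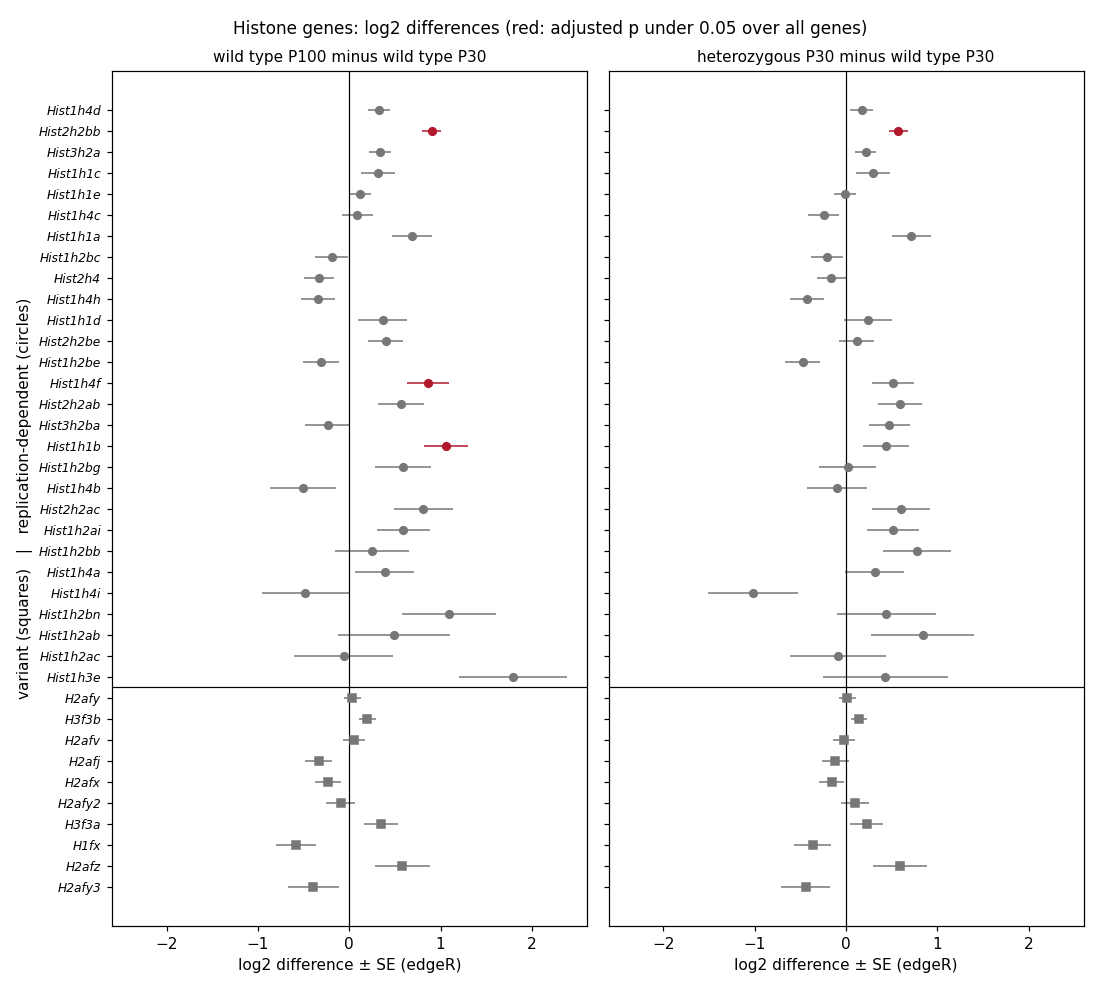
Log2 differences with standard errors for the members tested, wild-type P100 against wild-type P30 in one panel and heterozygous P30 against wild-type P30 in the other. Genes called by edgeR are red and the others grey. Called genes are Hist2h2bb, Hist1h1b and Hist1h4f in the age panel and Hist2h2bb in the genotype panel, all above 0.

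The second comparison asked how heterozygous P30 tissue differs from wild-type P30 tissue, and it shares the wild-type P30 libraries with the first. Only Hist2h2bb was called, higher in heterozygotes. That is 1 of 28 replication-dependent members (3.57%), where 3.23% of all tested genes were called, 0.903% as higher and 2.32% as lower. None of the 10 variants was called, and none reached an unadjusted p under 0.05. Of the 28 replication-dependent members 6 did, where 17.3% of all genes tested had such a p.

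Hist2h2bb had 82.8 and 73.0 CPM in the heterozygous libraries and 50.8 and 53.8 CPM in the wild-type P30 libraries. Both heterozygous values were above both wild-type values. The means were 77.9 ± 6.93 CPM and 52.3 ± 2.15 CPM (SD, n = 2 each), 1.49-fold higher in heterozygotes. The log2 difference was 0.57 with an SE of 0.10 (edgeR adjusted p = 0.00818). Without heterozygous replicate 1 it was 0.48 and no longer called (edgeR adjusted p = 0.0957). The authors' deposited table gives a log2 fold change of 0.58 with an adjusted p of 2.28e-04.

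Hist1h1a had 12.3 and 9.50 CPM in the heterozygous libraries, against 8.31 and 5.21 CPM in the wild-type P30 libraries. The groups did not overlap, and the log2 difference of 0.72 (SE 0.21) missed the threshold (edgeR adjusted p = 0.0850). Hist1h1b had 3.22 and 3.78 CPM in heterozygotes and 2.83 and 2.36 CPM in wild type, again without overlap. Its log2 difference of 0.44 (SE 0.25) was not called (edgeR adjusted p = 0.397).
Hist1h4f had 5.83 and 5.27 CPM in heterozygotes and 3.56 and 4.17 CPM in wild type. Its heterozygous values were both higher, with a log2 difference of 0.51 (SE 0.23) that was not called (edgeR adjusted p = 0.273). Hist1h4d had 149 and 175 CPM in heterozygotes against 125 and 162 CPM in wild type, which overlapped (log2 difference 0.17, SE 0.12).

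Other replication-dependent members lay on either side. Hist3h2a had 66.7 and 58.9 CPM in heterozygotes against 53.0 and 55.2 CPM in wild-type P30 libraries, with both heterozygous values higher (log2 difference 0.21, SE 0.12, edgeR adjusted p = 0.390). Hist1h4i, an H4 gene, had 0.469 and 0.846 CPM in heterozygotes against 1.46 and 1.25 CPM in wild type. It had 0.579 and 1.41 CPM at wild-type P100. Its genotype log2 difference was the lowest of the tested members, at -1.02 (SE 0.49), which was not called (edgeR adjusted p = 0.309). Hist1h2ab, an H2A gene, had 0.804 and 1.04 CPM in heterozygotes against 0.456 and 0.556 CPM in wild type, with 0.362 and 1.14 CPM at wild-type P100. Its genotype log2 difference of 0.84 (SE 0.56) was the highest among the tested members (edgeR adjusted p = 0.487). The H2B gene Hist1h2bb had 2.48 and 3.78 CPM in heterozygotes against 1.00 and 2.50 CPM in wild type, which overlapped slightly, and 2.46 and 1.85 CPM at wild-type P100. Hist1h4c had 10.1 and 13.02 CPM in heterozygotes against 13.2 and 14.2 CPM in wild type, both lower (log2 difference -0.25, SE 0.17, edgeR adjusted p = 0.498).

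Log2 differences of the variant genes between the genotypes lay between -0.44 and 0.59, and none was called. H2afy had 65.9 and 55.3 CPM in heterozygotes against 59.3 and 60.6 CPM in wild type, so that the wild-type values lay inside the heterozygous range. H3f3b had 59.3 and 55.5 CPM in heterozygotes against 54.0 and 50.2 CPM in wild type, both higher (log2 difference 0.14, SE 0.09, edgeR adjusted p = 0.463). H3f3a had 7.57 and 7.03 CPM in heterozygotes against 6.21 and 6.26 CPM in wild type, also both higher (log2 difference 0.23, SE 0.18, edgeR adjusted p = 0.571).

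The largest of these differences was that of H2afz, with 4.69 and 5.08 CPM in heterozygotes against 3.29 and 3.20 CPM in wild type. Both heterozygous values were higher, and the log2 difference of 0.59 (SE 0.29) was not called (edgeR adjusted p = 0.324). H1fx had 5.496 and 6.12 CPM in heterozygotes against 8.67 and 6.47 CPM in wild type, both lower (log2 difference -0.37, SE 0.21, edgeR adjusted p = 0.394). H2afy3 had 2.75 and 2.02 CPM in heterozygotes against 3.29 and 3.20 CPM in wild type, also both lower (log2 difference -0.44, SE 0.27, edgeR adjusted p = 0.435). The other variants overlapped between the genotypes. In heterozygotes H2afv had 17.9 and 20.4 CPM, H2afj 17.6 and 14.3 CPM, H2afx 13.3 and 11.4 CPM and H2afy2 10.9 and 12.2 CPM. The wild-type P30 values were 18.8 and 20.0 CPM for H2afv, 16.6 and 17.9 CPM for H2afj, 13.1 and 14.4 CPM for H2afx and 11.3 and 10.4 CPM for H2afy2.

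Counted by library order alone, 13 of the 30 replication-dependent members had both P100 libraries above both wild-type P30 libraries and 3 had both below. The counts for heterozygotes were 12 above and 4 below. For the 10 variants they were 3 above and 4 below at P100, and 3 above and 2 below in heterozygotes. Of all genes tested, 51.2% were separated at P100 (25.5% upwards and 25.7% downwards) and 48.9% in heterozygotes (24.5% upwards and 24.4% downwards). Among tested members, 42.9% of the replication-dependent genes were separated upwards at P100 and 35.7% in heterozygotes, and the share for variants was 30.0% in each comparison.

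The median log2 difference over the tested replication-dependent members was 0.35 at P100 and 0.27 in heterozygotes, where the medians over all genes were 0.00056 and 0.0029. Over the variants it was -0.029 at P100 and -0.0028 in heterozygotes. Log2 differences were above 0 for 71.4% of the tested replication-dependent members at P100 and 67.9% in heterozygotes, and for 5 of the 10 variants in each. Shares over all genes were 50.2% and 50.7%. The difference between the 2 classes was not tested, and the members share sequence and clusters, so they are not independent of each other. Without wild-type P100 replicate 2 the replication-dependent median at P100 was 0.17, and without replicate 1 it was 0.50.

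Summed over the 30 replication-dependent members, the level was 465 and 569 CPM in the wild-type P100 libraries, 466 and 457 CPM in the heterozygous libraries and 379 and 415 CPM in the wild-type P30 libraries. Both other groups lay above wild-type P30, by 1.30 times at P100 and 1.16 times in heterozygotes in the mean. A few genes carry this sum. Hist1h4d alone made up 32.0% to 39.0% of the replication-dependent counts per library, and Hist1h4d, Hist2h2bb and Hist3h2a together made up 60.5% to 67.7%. Without Hist2h2bb, whose transcript is mostly outside the histone gene, the ratios to wild-type P30 were 1.22 at P100 and 1.11 in heterozygotes. Without all 3 genes the sum was 156 and 184 CPM at P100, 167 and 149.9 CPM in heterozygotes and 149.8 and 144 CPM at wild-type P30, with ratios of 1.16 and 1.08. The variants summed to 193 and 202 CPM at P100, 205 and 189 CPM in heterozygotes and 195 and 192 CPM at wild-type P30, a ratio of 1.02 in each comparison. Several variants have more than 1 transcript and enter with the most counted one only. Their sum is therefore not a whole-gene total to set against the replication-dependent sum.

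The extremes of the replication-dependent members fell unevenly over the libraries. Wild-type P100 replicate 2 was the highest of the 6 libraries for 14 of the 30 members. Its part in the P100 values was not tested beyond leaving it out. Wild-type P30 replicates 1 and 2 were the lowest for 10 and 9 of the 30. The same counts were not made over all genes, so these may be general to the libraries. Summed by family, the H2B members had 122 and 141 CPM at P100, 114 and 106 CPM in heterozygotes and 80.4 and 88.6 CPM at wild-type P30. Most of that sum is Hist2h2bb. The H4 members had 198 and 248 CPM at P100, 187 and 214 CPM in heterozygotes and 166 and 207 CPM at wild-type P30, so that the groups overlapped.

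**Figure D5:**
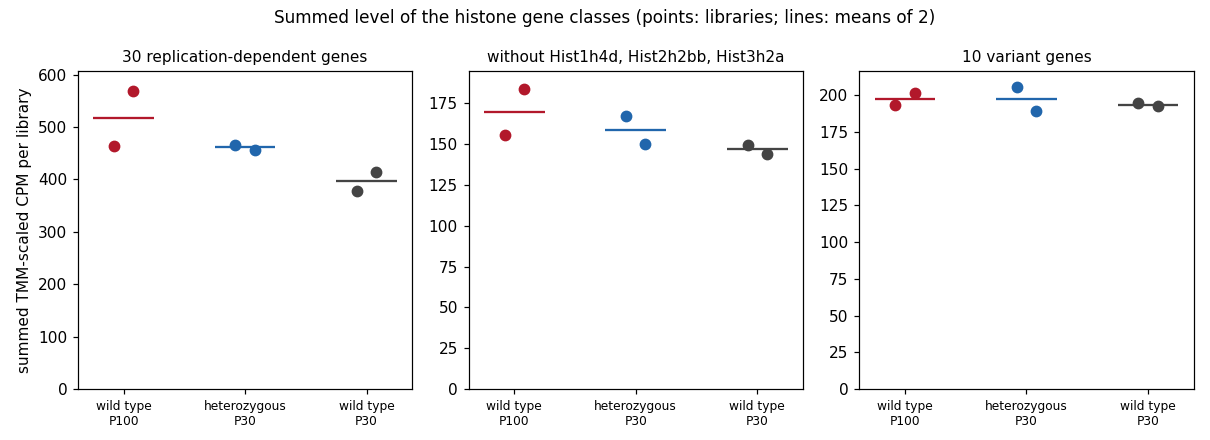
Summed TMM-scaled CPM per library for all replication-dependent members, for those members without Hist1h4d, Hist2h2bb and Hist3h2a, and for the variants, with groups from left to right wild-type P100, heterozygous P30 and wild-type P30, points for libraries and lines for means of 2. The replication-dependent sums of 457 to 569 CPM at P100 and in heterozygotes lie above the 379 and 415 CPM at wild-type P30, and the variant sums stay between 189 and 205 CPM.

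The 3 called genes differ in the sequence before their start. The RefSeq promoter windows (250 bases before to 50 after the start, GRCm38.p6) are shown for them because these members were called at P100. Capitals mark a CCAAT box, a TATAAA box or an ATGCAAAT octamer on either strand, the octamer and CCAAT reading ATTTGCAT and ATTGG on the other strand. The window of Hist2h2bb (RefSeq H2bc18) is chr3:96269450-96269749 on the plus strand, that of Hist1h1b (H1f5) is chr13:21780576-21780875 on the minus strand, and that of Hist1h4f (H4c6) is chr13:23551619-23551918 on the minus strand.
Hist2h2bb: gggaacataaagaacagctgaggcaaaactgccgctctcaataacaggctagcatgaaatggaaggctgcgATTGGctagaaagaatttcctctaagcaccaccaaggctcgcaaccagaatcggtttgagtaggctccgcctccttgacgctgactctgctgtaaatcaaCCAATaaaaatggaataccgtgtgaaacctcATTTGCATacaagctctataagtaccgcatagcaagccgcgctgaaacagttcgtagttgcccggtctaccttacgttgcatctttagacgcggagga
Hist1h1b: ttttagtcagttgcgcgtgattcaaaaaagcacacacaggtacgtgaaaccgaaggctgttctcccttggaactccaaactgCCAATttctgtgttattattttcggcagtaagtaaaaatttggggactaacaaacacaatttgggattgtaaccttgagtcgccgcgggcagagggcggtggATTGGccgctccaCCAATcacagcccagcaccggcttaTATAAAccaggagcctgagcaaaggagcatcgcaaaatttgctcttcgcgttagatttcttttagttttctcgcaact
Hist1h4f: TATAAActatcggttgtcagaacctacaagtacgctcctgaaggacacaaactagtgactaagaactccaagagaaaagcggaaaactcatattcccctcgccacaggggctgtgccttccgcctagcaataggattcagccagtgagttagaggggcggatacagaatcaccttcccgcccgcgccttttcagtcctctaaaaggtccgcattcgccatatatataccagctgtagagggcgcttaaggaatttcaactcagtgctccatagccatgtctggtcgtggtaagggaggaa
Hist2h2bb holds CCAAT on both strands and 1 octamer but no TATAAA, Hist1h1b holds CCAAT on both strands and a TATAAA close to the start, and the only match in Hist1h4f is a TATAAA at the far end. Promoter windows were found for 27 replication-dependent and 8 variant members. CCAAT was present in 23 of the 27 and in 6 of the 8, against 37.4% of all 32851 windows. TATAAA was present in 18 of the 27 and 1 of the 8, against 13.6% of all. ATGCAAAT was present in 7 of the 27 and 1 of the 8, against 1.74% of all, and the cyclic AMP response element TGACGTCA in 2 of the 27 and 0 of the 8, against 1.79%. These are matches of letters, not measured sites.

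Genes that make, cut and load histones were compared from lists chosen by function. Of 20 genes of histone mRNA processing, 1 was higher and 1 lower at P100, where 7.54% of all genes tested were called, and none was called in heterozygotes, where 3.23% of all genes were. The shares are near those of all genes and say nothing particular of the list. Casp8ap2, which encodes FLASH, a factor of the histone locus body, had 59.9 and 58.6 CPM at P100 against 43.2 and 46.3 CPM at wild-type P30 (log2 difference 0.40, SE 0.09, edgeR adjusted p = 0.0174). Lsm11, a subunit of the U7 particle that cuts histone pre-mRNA, had 39.4 and 47.1 CPM at P100 against 77.2 and 77.4 CPM at P30. Both P100 values were far below both P30 values, and the gene fell by 0.84 on the log2 scale (SE 0.10, edgeR adjusted p = 2.15e-04). Slbp, the gene of the stem-loop binding protein, had 11.7 and 12.1 CPM at P100, 13.7 and 11.6 CPM in heterozygotes, and 10.3 and 9.52 CPM at wild-type P30, and was called in neither comparison (edgeR adjusted p = 0.333 and 0.228). It was named after its values were seen.

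Of 38 tested genes of histone chaperones and variant loading, 2 were higher at P100 and 1 was lower in heterozygotes, again shares no higher than the 7.54% and 3.23% called over all genes. Asf1a, a chaperone of H3 and H4, had 24.5 and 23.4 CPM at P100 against 17.4 and 18.3 CPM at P30 (log2 difference 0.42, SE 0.11, edgeR adjusted p = 0.0368). Hjurp, the chaperone of the centromeric H3 variant, had 79.3 and 71.9 CPM at P100 against 46.9 and 43.0 CPM at P30 (log2 difference 0.75, SE 0.19, edgeR adjusted p = 0.0256). Nap1l1, a chaperone of H2A and H2B, had 114 and 122 CPM in heterozygotes against 145 and 149.7 CPM in wild type and fell by 0.32 on the log2 scale (SE 0.07, edgeR adjusted p = 0.0313).

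Markers of dividing cells differed widely in level, with means over the 6 libraries such as 0.177 CPM for Cdk1 and 24.8 CPM for Rrm1. Of 24 tested, Bub1b was higher and Ccnb1 lower at P100, near the 7.54% called over all genes, and none was called in heterozygotes. Bub1b, a spindle checkpoint kinase gene, had 5.94 and 5.63 CPM at P100 against 1.73 and 1.25 CPM at P30 (log2 difference 1.97, SE 0.31, edgeR adjusted p = 0.00193). Ccnb1, a mitotic cyclin gene, had 0.724 and 0.0880 CPM at P100 against 1.83 and 1.81 CPM at P30 (log2 difference -2.04, SE 0.54, edgeR adjusted p = 0.0364). The 30 markers in the list summed to 112 and 114 CPM at P100, 117 and 104 CPM in heterozygotes and 101 and 99.3 CPM at wild-type P30. Both other groups were thus above wild-type P30 in the sum, but single markers went either way. Rrm1 had 28.2 and 27.4 CPM at P100 against 23.6 and 23.2 CPM at wild-type P30. Mki67 had 1.52 and 0.968 CPM against 2.37 and 1.81 CPM, and Top2a 1.23 and 1.06 CPM against 2.37 and 1.74 CPM. None of these 3 was called. The median log2 difference over the 24 tested was 0.13 at P100. The part of dividing cells in the histone values was not tested.

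RNAs that normally lack a poly(A) tail were followed because processed histone mRNAs lack one too, and the labels do not say whether poly(A) RNA was selected. Of 16 tested, Scarna10 and Rnu12 were called higher at P100 and Rmrp lower in heterozygotes. Over all genes tested, 7.54% were called at P100 and 3.23% in heterozygotes. Scarna10, a Cajal body RNA, had 323 and 415 CPM at P100 against 257 and 196 CPM at wild-type P30 (log2 difference 0.71, SE 0.12, edgeR adjusted p = 0.00371). Rnu12, an RNA of the minor spliceosome, had 10.7 and 16.7 CPM at P100 against 3.38 and 7.16 CPM at P30 (log2 difference 1.32, SE 0.34, edgeR adjusted p = 0.0301). Rmrp, the RNA of a ribosomal RNA processing enzyme, had 489 and 551 CPM in heterozygotes against 634 and 699 CPM in wild type (log2 difference -0.36, SE 0.09, edgeR adjusted p = 0.0373). The list summed to 2674 and 2399 CPM at P100, 1906 and 2313 CPM in heterozygotes and 2431 and 2605 CPM at wild-type P30. The sums overlapped between P100 and P30, both heterozygous sums lay below both wild-type P30 sums, and their part in the histone values was not tested.

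Other cell types moved between the same groups. The counts that follow stand beside 4.54% of all genes tested called lower at P100 and 2.32% in heterozygotes. Of 15 markers of oligodendrocyte precursors, which still divide in the adult cortex, 9 were lower at P100 and 1 in heterozygotes, with summed levels of 456 and 418 CPM at P100, 574 and 605 CPM in heterozygotes and 625 and 622 CPM at wild-type P30. Of 15 markers of myelinating oligodendrocytes, 12 were lower at P100 and 12 in heterozygotes, with sums of 2019 and 1716 CPM at P100, 2482 and 2542 CPM in heterozygotes and 3592 and 3428 CPM at wild-type P30. Fewer markers of microglia (3 of 15 at P100 and 2 of 15 in heterozygotes), astrocytes (3 of 10 and 2 of 10) and endothelial cells (2 of 10 and 1 of 10) were lower, and 2 of 10 excitatory neuron markers were lower at P100. No marker of these lists was called higher. All 15 activity-regulated genes were lower in both comparisons. Of 2 tested blood genes, 1 was lower at P100. The 12 choroid plexus markers, of which 3 were tested and none called, summed to 1057 CPM in heterozygous replicate 2 and to 157 to 216 CPM in the other 5 libraries. In that library Hist2h2bb was the lower of the heterozygous pair. The part of these cell types in the histone values was not tested.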

How the data were processed

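Total RNA of the dissected tissue was sequenced, per the labels' protocols. Bowtie, HTSeq and DESeq 1.8.3 are named in the submitters' processing notes, with mm10 as the build. The sources used here give no settings, annotation release, read length, use of strand or poly(A) selection. The deposited files hold raw counts for each Ensembl transcript, as their headers and whole-number values show. The authors' deposited comparison tables list, by their headers, a signal (mean normalised count) per group, the ratio of these means as a fold change, its log2 value and a p-value with its adjusted form. Their log2 and adjusted p columns appear only where the text says so.

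Counts over all transcripts came to between 30651483 and 42374860 a library. Of 95533 transcripts, 9669 had no gene and were left out with their 13.96% of counts. The most counted transcript stood for each gene. After filterByExpr (minimum count 10 and minimum total 15) and TMM scaling, a quasi-likelihood test was fitted in edgeR 4.0.16 (R 4.3.3) to 3 groups in 6 libraries at once, which leaves 3 residual degrees of freedom. Benjamini-Hochberg adjustment ran over 15841 genes at a threshold of 0.05, and SE is the log2 difference divided by the root of F. Alternatives used other scalings and filters, DESeq2 1.42.0, limma-voom (limma 3.58.1), a replicate block, summed transcripts and each library left out. The series has 8 samples, and the heterozygous P100 pair was not analysed here.

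Transcript lengths, overlaps and stem-loops came from GENCODE M21 (GRCm38), which did not hold the counted transcript of H2afy3. Promoter windows came from RefSeq (GRCm38.p6). Members and lists were chosen with earlier results of these data known. Values in every library are given for members past the threshold, for the 6 replication-dependent and 6 variant members of highest mean CPM and for the 6 others with the largest log2 differences. Hist1h1a and the remaining variants were named after their values were seen.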

Additional observations from a re-analysis of the deposited data

How the results depend on the processing

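Hist2h2bb stayed called at P100 under all 16 refits and in heterozygotes under 15 of 16. No variant was called under any alternative run. Of the replication-dependent members, 7 were called at P100 and 2 in heterozygotes with no filter on low counts, 1 at P100 with DESeq2, 1 at P100 with counts summed over transcripts, and 1 to 3 at P100 and 0 to 2 in heterozygotes with a library left out. Replicate numbers did not pair the libraries (correlation of deviations -0.004, 0.10 and -0.0003); with the replicate block 5 were called at P100, Hist1h1a and Hist1h4d among them, and 2 in heterozygotes. Over all genes, 1860 and 1120 were called at P100 and in heterozygotes with no filter, 791 and 263 with summed transcripts, and 351 to 1078 and 184 to 473 with a library left out. Dropping the filter, summing transcripts and leaving a library out change the number of genes tested or of libraries. The cause was not tested for the other settings. Where a group keeps 1 library, that library is assumed to vary like the others. The replication-dependent median log2 difference was 0.17 to 0.50 at P100 and 0.23 to 0.37 in heterozygotes with a library left out. The variant median was -0.083 to 0.039 and -0.031 to 0.028 there, 0.017 and 0.033 with library totals only, and -0.069 at P100 with summed transcripts.

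Of the single differences, none of those called changed sign. With a library left out, P100 log2 differences crossed 0 for H2afy2 (-0.22 to 0.035), Hist1h1d (-0.018 to 0.80), Hist1h1e (-0.024 to 0.26), Hist1h2ab (-0.49 to 1.14), Hist1h2ac (-0.38 to 0.48), Hist1h2bb (-0.20 to 1.11), Hist1h2bc (-0.36 to 0.022), Hist1h4c (-0.12 to 0.29) and Hist1h4i (-1.20 to 0.061). Those of heterozygotes crossed 0 for H2afj (-0.28 to 0.029), H2afv (-0.12 to 0.070), H2afy (-0.12 to 0.14), Hist1h1d (-0.14 to 0.67), Hist1h1e (-0.031 to 0.0026), Hist1h2ac (-0.41 to 0.45), Hist1h2bc (-0.38 to 0.0054), Hist1h2bg (-0.24 to 0.32), Hist1h2bn (-0.11 to 1.11), Hist1h3e (-0.27 to 0.91), Hist1h4b (-0.72 to 0.34) and Hist1h4d (-0.0010 to 0.37). H2afv turned to -0.045 at P100 with summed transcripts and to 0.016 in heterozygotes with library totals only, and Hist1h1e to 0.022 there. Members of few counts, such as Hist1h3e with 49 in all, are limited by depth.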
